A study of Homo sapiens with 5 samples.

Results

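The 10 genes described here are 4 receptors and 6 ligands of the ERBB family, found by their symbols among the 36601 gene rows of the 80% matrix. The receptors are EGFR, ERBB2, ERBB3 and ERBB4, and the ligands are AREG, EREG, HBEGF, TGFA, BTC and NRG1. They were followed over RNA and open chromatin (ATAC) read from the same nuclei with the 10× Multiome protocol. The nuclei came from an equal mixture of the 5 human lung adenocarcinoma lines A549, H1975, H2228, H838 and HCC827, which had been cultured separately with no treatment other than freezing. The droplets (GEMs) were divided into an 80% and a 20% portion, with a single RNA and a single ATAC library made from each. Without replicates no difference was tested, and the 95% intervals given are exact unless named otherwise and cover counting error only.

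ERBB receptors are tyrosine kinases of the cell surface that pair after a ligand binds and then signal through the RAS to ERK and PI3K to AKT routes. AREG, EREG, HBEGF, TGFA and BTC bind EGFR, some of them ERBB4 as well, and NRG1 binds ERBB3 and ERBB4. ERBB2 has no known ligand of its own, and ERBB3 has little kinase activity and acts through its partners. In lung adenocarcinoma the family is known for activating mutations and extra copies of EGFR, and of the lines in the mixture HCC827 and H1975 are known as EGFR mutant. The cell line labels that the study obtained from sequence variants were not used here, so nuclei were grouped by RNA clusters, which are given by number and were matched to no line.

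The 80% matrix held 6557 barcodes with 95455518 RNA UMIs and 63920767 ATAC counts, and the 20% matrix held 1286 barcodes with 14346346 UMIs and 12850543 ATAC counts. A total of 159 barcodes were called in both portions, 2.42% of the 80% and 12.4% of the 20% barcodes. The clusters were made without the members and without the genes within 1 Mb of them, 406 genes in all. Clusters 0 to 4 held 2454, 1463, 1452, 858 and 330 nuclei and were led by MEG8, ALDH1A1, AC069277.1, DHRS2 and AC090578.1, in that order. Median UMIs per nucleus lay between 9156 in cluster 1 and 15815 in cluster 3, and doublet calls between 0.620% in cluster 2 and 11.2% in cluster 3. All 6 epithelial markers (EPCAM, KRT8, KRT18, KRT19, CDH1, CLDN4) reached at least 10 CPM in some cluster, and their summed level ran from 1377 to 9206 CPM. They were uneven, with EPCAM, CDH1 and CLDN4 at 23.8, 4.86 and 4.34 CPM in cluster 2 and 753, 199 and 183 CPM in cluster 4. KRT8, KRT18 and KRT19 had 512, 728 and 104 CPM in cluster 2. Of the 5 immune markers PTPRC, CD3E and LYZ stayed below 1 CPM in every cluster, while CD79A reached 6.82 CPM in cluster 3 and CD68 44.6 CPM in cluster 4. Of the 4 fibroblast markers DCN and LUM stayed below 1 CPM, while COL1A1 reached 243 CPM in cluster 0 and COL1A2 32.4 CPM in cluster 3. Of the 4 alveolar markers SFTPB and SFTPC stayed below 1 CPM, while NKX2-1 had 50.3, 43.7 and 74.7 CPM in clusters 0, 3 and 4 and NAPSA 68.9 CPM in cluster 4. The 3 endothelial markers summed to at most 9.25 CPM. CPM stands for the UMIs of a gene per 1000000 UMIs of all nuclei in a cluster.

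The bases in front of the starts are shown for EGFR, AREG and EREG. EGFR had the widest range of RNA. AREG and EREG are neighbours on chromosome 4, and in cluster 2 the AREG start had 63 ATAC counts and the EREG start 0. The bases shown are the 250 before the start in RefSeq on GRCh38.p14, all on the plus strand, and EGFR has a pair of such starts. Capitals mark matches on either strand to any of 5 motifs. These were TGANTCA for the AP-1 factors and GGAATG for the TEAD factors, both bound by factors of growth and stress signalling, GGGCGG for the GC box bound by SP1, TATAAA for the TATA box of the core promoter and CCGGAA for the ETS factors, which ERK signalling activates.
EGFR first start, chr7:55018767-55019016: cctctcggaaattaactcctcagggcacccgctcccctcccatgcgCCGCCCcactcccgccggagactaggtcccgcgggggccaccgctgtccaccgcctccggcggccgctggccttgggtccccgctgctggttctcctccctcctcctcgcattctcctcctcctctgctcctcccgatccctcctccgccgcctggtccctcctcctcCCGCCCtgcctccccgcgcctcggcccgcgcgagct
EGFR second start, chr7:55109589-55109838: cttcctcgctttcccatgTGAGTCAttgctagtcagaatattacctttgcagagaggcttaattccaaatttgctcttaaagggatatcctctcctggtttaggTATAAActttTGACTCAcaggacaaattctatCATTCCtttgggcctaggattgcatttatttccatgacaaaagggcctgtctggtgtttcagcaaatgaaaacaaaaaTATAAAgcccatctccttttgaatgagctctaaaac
AREG, chr4:74444886-74445135: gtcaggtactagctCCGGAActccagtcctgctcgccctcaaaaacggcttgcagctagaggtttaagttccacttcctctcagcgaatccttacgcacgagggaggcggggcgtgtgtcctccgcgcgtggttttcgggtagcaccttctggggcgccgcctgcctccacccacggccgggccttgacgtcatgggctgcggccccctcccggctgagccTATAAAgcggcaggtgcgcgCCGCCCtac
EREG, chr4:74364895-74365144: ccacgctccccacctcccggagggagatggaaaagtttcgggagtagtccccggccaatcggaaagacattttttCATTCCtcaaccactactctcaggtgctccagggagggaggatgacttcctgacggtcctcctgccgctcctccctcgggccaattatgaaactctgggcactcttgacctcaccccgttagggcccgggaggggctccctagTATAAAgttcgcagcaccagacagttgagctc
The first EGFR start had 2 GC box matches and no match to the other motifs, and its GC content was 73.6%. The second EGFR start, at 38.8% GC, had 2 AP-1, 2 TATA box and 1 TEAD match. AREG carried a TATA box 29 bases before its start, a GC box and an ETS match, and EREG a TATA box 32 bases before its start and a TEAD match. Over 35116 promoter windows of this length in the same table, 6.57% held AP-1, 11.9% TEAD, 42.6% GC box, 10.7% TATA box and 14.5% ETS letters. The matches are letters in a window and show no binding. The table held 8 of the 10 members, without ERBB3 and NRG1.

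EGFR was the member with the largest difference between clusters. Its RNA stood at 463, 249, 78.5 and 459 CPM in clusters 0 to 3 and at 7205 CPM (7129 to 7281) in cluster 4. Cluster 4 was thus 15.6-fold above the next cluster and 91.8-fold above the lowest, cluster 2, while clusters 0 and 3 had overlapping intervals. In the 20% portion, whose nuclei were given the cluster with the closest profile, EGFR reached 8217 CPM in cluster 4 and at most 485 CPM elsewhere, a 16.9-fold difference. Cluster 4 held 5.03% of the nuclei and 52.5% of the EGFR UMIs.

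ERBB2, the preferred partner of the other receptors, had 21.7, 38.5, 52.3, 36.0 and 33.4 CPM in clusters 0 to 4. It was one of the 2 members that were not lowest in cluster 2, and the only one highest there, 1.36-fold above cluster 1. ERBB3 had 4.19, 19.4, 3.92, 19.4 and 22.0 CPM. By cluster it formed 2 levels, with overlapping intervals among clusters 1, 3 and 4 and between clusters 0 and 2, and a 4.63-fold step between them. The value of cluster 3 covers unlike groups of nuclei, divided below, at 31.6 and 1.79 CPM, so its place in the upper level holds for the sum only. In the 20% portion cluster 3 was highest, at 30.9 CPM. ERBB4 had 46 UMIs in the 80% matrix and 0.622 CPM or less in every cluster, so no order could be read at this depth.

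AREG and EREG, ligands of EGFR that start 79.991 kb apart on chromosome 4, were highest in cluster 4, the cluster with the most EGFR RNA. AREG had 70.1, 207, 13.2 and 90.1 CPM in clusters 0 to 3 and 425 CPM (407 to 444) in cluster 4, 2.05-fold above cluster 1. With TMM scaling this fold was 1.97 and fell short of 2-fold. EREG, the other of the pair, had 134, 144, 5.17, 62.6 and 282 CPM, 1.96-fold above the next cluster. Both were lowest in cluster 2, where EREG was 12.1-fold below cluster 3.

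TGFA, another EGFR ligand, was highest in cluster 0. Its levels were 40.0, 22.5, 1.78, 26.8 and 18.9 CPM, and clusters 1 and 3 and clusters 1 and 4 had overlapping intervals. BTC, 349.387 kb from AREG, had 11.9, 3.03, 0.627, 3.71 and 17.4 CPM, with cluster 4 1.46-fold above cluster 0. HBEGF, which is made as a membrane-bound precursor and also binds ERBB4, had 5.95, 2.29, 5.17, 14.9 and 16.6 CPM. It was the member lowest in cluster 1, and its intervals in clusters 3 and 4 overlapped.

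NRG1, the ligand of ERBB3 and ERBB4, had its own order of clusters. It stood at 117, 481, 8.15, 160 and 201 CPM, 2.39-fold higher in cluster 1 (470 to 493) than in cluster 4, and 14.4-fold lower in cluster 2 than in cluster 0. In the 20% portion the levels were 133, 455, 15.8, 134 and 146 CPM.

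**Figure D1:**
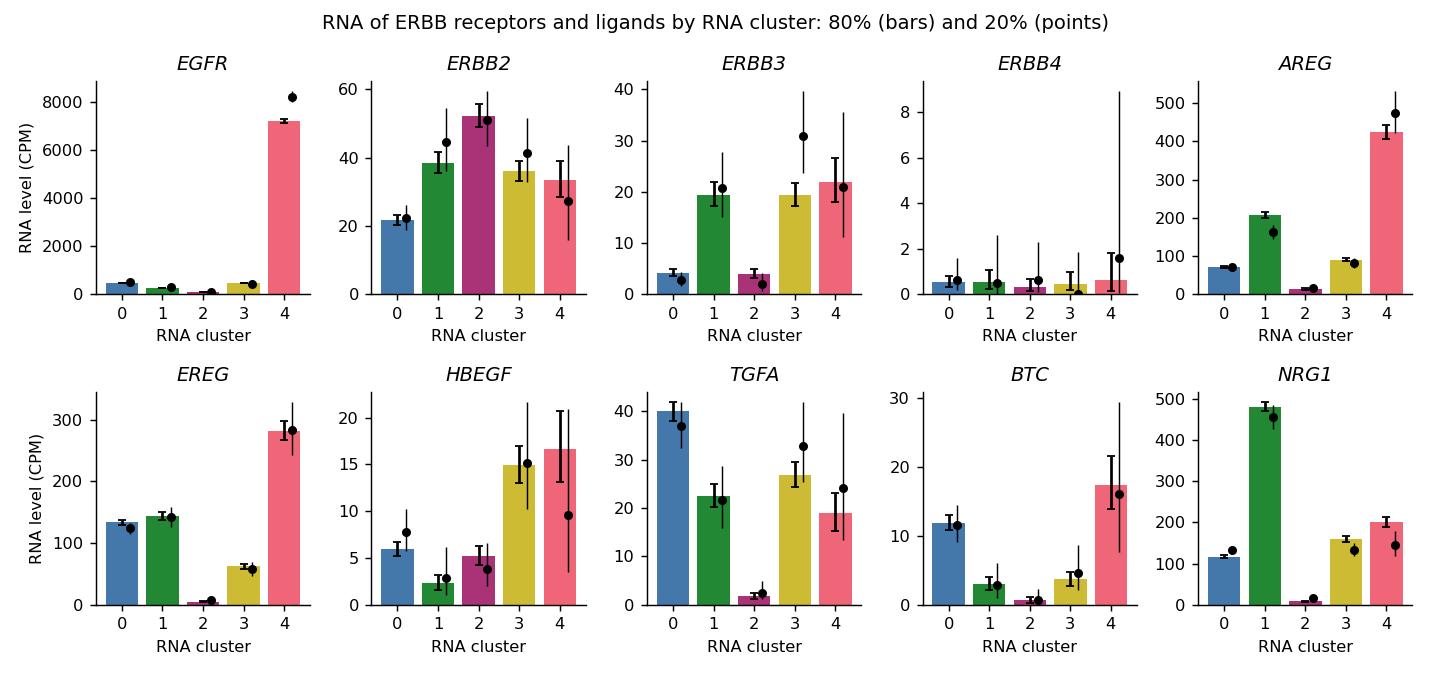
RNA level (CPM) of the 10 members on the y axis, each panel with its own scale, by RNA cluster on the x axis. Bars are the 80% portion, black points the 20% portion, and error bars exact 95% Poisson intervals. EGFR stands at 7205 CPM in cluster 4 and NRG1 at 481 CPM in cluster 1, and cluster 2 is lowest for 7 of the 9 members with at least 100 UMIs.

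With a rule of at least 100 UMIs and 2-fold over the next cluster, 3 of 9 members were called (EGFR, AREG and NRG1), where 17.5% of the 16913 genes with this depth were called. The highest cluster was at least 4-fold above the lowest for 8 of 9 members, against 35.1% of genes. Cluster 2 was lowest for 7 of 9, against 28.4%, and cluster 4 highest for 6 of 9, against 15.5%. AREG, EREG and BTC, neighbours on chromosome 4, are in both of these counts, so the members counted are not independent of one another. ERBB3 and HBEGF were highest in cluster 4 with intervals that overlapped the next cluster. With cluster 3 divided as below, both were highest in a group of cluster 3 instead. The highest cluster was the same in the 20% portion for 7 of 9 members, against 75.0% of genes, and for all 3 called members, against 96.0% of called genes. The other 2 were ERBB3 and HBEGF, which were highest in cluster 3 there.

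Free RNA was not measured, so levels in cluster 2 were set against those of the leading genes of other clusters. The leading genes of the other clusters were found in cluster 2 at 0.473% to 2.08% of their highest level, and over all pairs of clusters at 0.384% to 6.75%. EGFR in cluster 2 was at 1.09% of its highest level, NRG1 at 1.69%, EREG at 1.83%, AREG at 3.10%, BTC at 3.60% and TGFA at 4.44%. EGFR, NRG1 and EREG thus lay within the range of the leading genes in cluster 2. The upper end of that range, 2.08%, was DHRS2, the leading gene of cluster 3, while EGFR was highest in cluster 4. AREG, BTC and TGFA lay above that range and below the highest value over all pairs. ERBB3 at 17.8% and HBEGF at 31.2% were above both, and ERBB2 was at its highest level there. BTC rests on 12 UMIs in cluster 2, 0.627 CPM (0.324 to 1.09). The leading genes were high in a single cluster, while NRG1, EREG, AREG, BTC and TGFA were expressed in several. The percents of these members are thus not on a like footing. Whether the RNA of EGFR or of these members in cluster 2 was free RNA was not tested. In clusters 0, 1 and 3 EGFR was at 6.42%, 3.46% and 6.38% of its level in cluster 4. AC090578.1, the leading gene of cluster 4, was at most at 1.63% elsewhere. In cluster 2 AC090578.1 was at 0.473%, also below EGFR.

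Shares of nuclei with a UMI were compared after thinning every nucleus to 4000 UMIs, which left out 6 to 20 nuclei per cluster. EGFR was seen in 78.1%, 56.6%, 25.9%, 73.8% and 99.4% of nuclei in clusters 0 to 4. The unthinned shares were 97.8%, 80.7%, 57.9%, 96.9% and 99.7%, at median depths of 15425.5, 9156, 12672, 15815 and 11962.5 UMIs. NRG1 was seen in 70.5% of thinned nuclei of cluster 1 (68.1 to 72.9) and in 2.84% of cluster 2. AREG ran from 5.48% in cluster 2 to 63.3% in cluster 4, EREG from 1.11% to 51.5%, and TGFA from 0.485% in cluster 2 to 13.8% in cluster 0. The highest cluster by share was the same as by CPM for these members.

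The EGFR level of cluster 4 was shared by most of its nuclei. The median nucleus there had 89 EGFR UMIs and 6739 CPM, with 5% of nuclei below 1814 and 5% above 15569 CPM. Median nuclei of clusters 0 to 3 had 408, 187, 65.4 and 366 CPM. Of the 6227 nuclei outside cluster 4, 20 lay above 1814 CPM, and 14 of these were doublet calls. In cluster 4, 10 of 330 nuclei had less than 1000 CPM.

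**Figure D2:**
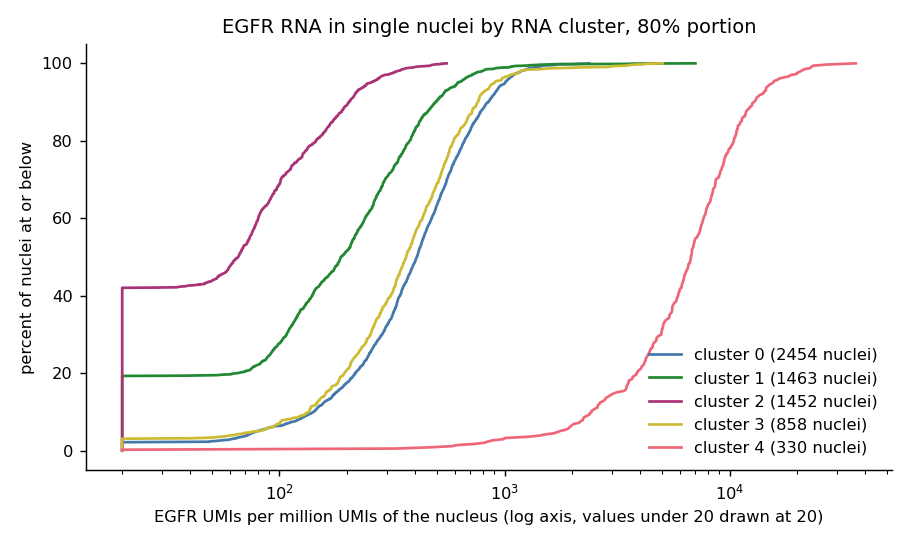
Percent of nuclei (y axis) at or below a given EGFR level in CPM of the nucleus (log x axis), with 1 line per RNA cluster of the 80% portion. The line of cluster 4 is centred on 6739 CPM and lies to the right of the others, whose medians are 65.4 to 408 CPM.

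Open chromatin at the gene starts was taken from 19 peaks within 1000 bp of an annotated start of a protein-coding transcript (GENCODE v44, hg38), and every member had at least 1 such peak. ATAC levels (ATAC CPM) are counts per 1000000 ATAC counts in peaks of a cluster. The cluster with the most ATAC at the starts was also the one with the most RNA for 6 of the 9 members with at least 100 UMIs, EGFR, ERBB3, AREG, HBEGF, BTC and NRG1, against 50.0% of such genes with a start peak. The 3 called members were among them, where 71.7% of called genes had the same cluster. Within the 20% portion this held for 3 of 9, EGFR, ERBB2 and NRG1, against 44.1% of genes. The AREG starts were highest in cluster 3 there, with 20.3 ATAC CPM against 13.2 in cluster 4, ERBB3 starts in cluster 1 and BTC starts in cluster 0, so their order was not the same in both portions. Cluster 2 had the lowest start level for 8 of the 9 members with at least 100 ATAC counts there, all but ERBB2, against 20.6% of genes. The neighbours AREG, EREG and BTC are among the 8.

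The EGFR starts had 37.4, 24.3, 16.2, 50.6 and 540 ATAC CPM in clusters 0 to 4, so that cluster 4 was 10.7-fold above cluster 3. The peak at the first start (chr7:55018616-55019491, exonic) ran from 15.7 in cluster 2 to 454 in cluster 4. The exonic peak at the start 90.6 kb downstream (chr7:55109109-55110027), which holds the second EGFR sequence above, had 6.09, 1.14, 0.533, 16.4 and 86.5 ATAC CPM. At that peak clusters 1 and 2 had 13 and 5 counts, while at the first start they had 263 and 147.

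At the EREG start (chr4:74364600-74365525, exonic) cluster 2 had 0 of 9377443 ATAC counts, where 3 counts, the floor used here, would give 0.320 ATAC CPM and the exact upper limit is 0.393. Clusters 0, 1, 3 and 4 had 14.7, 11.3, 10.9 and 13.1, at least 34.0-fold higher with this floor of 3 counts. The 20% portion also had 0 counts at its EREG start peak in cluster 2 and 13.1 to 17.4 ATAC CPM in the other clusters. The AREG start (chr4:74444810-74445745, exonic) remained measurable in cluster 2, with 6.72 ATAC CPM (5.16 to 8.60) against 15.4, 17.5, 11.2 and 23.6 in clusters 0, 1, 3 and 4. EREG RNA was 282, 144 and 62.6 CPM in clusters 4, 1 and 3, while the ATAC intervals at its start overlapped among these 3 clusters.

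TGFA, BTC and NRG1 were also lowest in cluster 2 at their starts. TGFA had 59.9, 62.2, 15.0, 35.7 and 53.1 ATAC CPM, BTC 19.3, 15.6, 4.69, 11.3 and 21.0, and NRG1 52.6, 69.3, 15.8, 34.0 and 44.1. Their highest clusters were 4.14-fold, 4.48-fold and 4.39-fold above cluster 2. NRG1 has 24 annotated starts on chromosome 8, and the 5 peaks within 1000 bp of any of them differed in their order of clusters. The peak at the first start (31638827 to 31639535) was highest in cluster 0, with 2.63 ATAC CPM against 1.06 in cluster 1, and had 0 counts in cluster 3. The peak 909.1 kb downstream (32547974 to 32548717), with 9 starts, was highest in cluster 1, with 35.8 against 20.5 in cluster 0 and 22.3 in cluster 4.

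**Figure D3:**
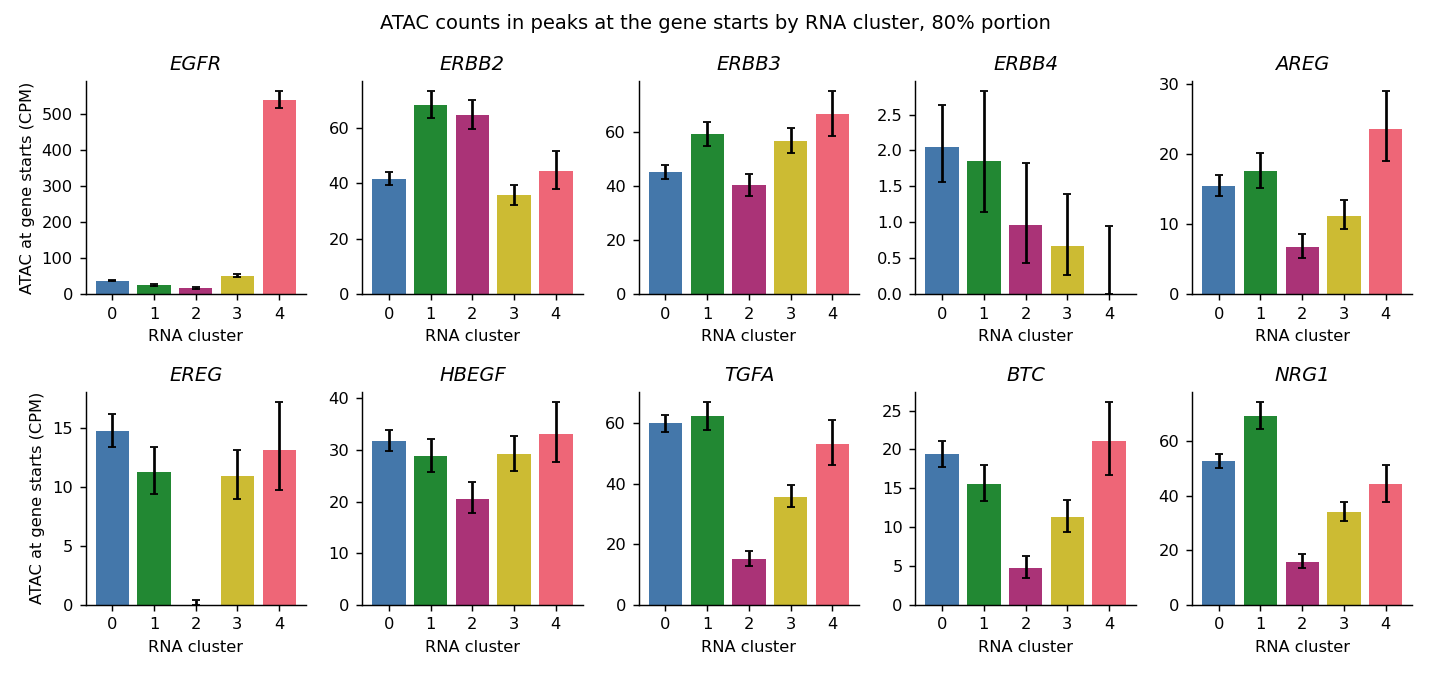
ATAC CPM (y axis, each panel with its own scale) in the peaks at the gene starts of the 10 members, by RNA cluster (x axis) of the 80% portion, with exact 95% Poisson intervals. EGFR stands at 540 in cluster 4, and EREG has no count in cluster 2.

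The ATAC difference at EGFR reached far beyond its starts. Among 152 peaks within 500 kb of EGFR, start peaks left out, the ATAC level of cluster 4 was a median of 10.3-fold the highest other cluster (quartiles 6.66 and 13.8), and 132 peaks were past 4-fold. Over all 158342 peaks the median was 0.484, and 0.657% were past 4-fold. In bins of 250 kb from 750 kb before to 750 kb after the start, cluster 4 stood 10.9-fold to 23.9-fold above the mean of the other clusters. The next 2 bins downstream gave 3.50 and 2.85, and bins between -5000 and -3500 kb gave 1.12 to 1.69.

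RNA of the genes around EGFR was also highest in cluster 4, for all 13 neighbours that start within 1 Mb of the gene and have at least 100 UMIs. SEC61G, a subunit of the protein translocation channel, had 4255 CPM and was 8.16-fold above the next cluster. LANCL2 was 11.4-fold and VOPP1 also 11.4-fold above it, AC074351.1 9.87-fold and EGFR-AS1, which overlaps EGFR, 10.8-fold. From ZNF713 outward the folds were smaller, 1.78 for NIPSNAP2, 2.52 for ZNF713, 3.07 for MRPS17, 2.97 for PSPH, 2.57 for CCT6A, 2.41 for SUMF2, 2.30 for PHKG1 and 2.01 for CHCHD2. The EGFR fold of 15.6 in RNA thus stood beside 10.7 at its starts, 10.3 in the surrounding peaks and 8.16 to 11.4 for the nearest genes. Gene copies were not measured, and their part in these values was not tested.

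**Figure D4:**
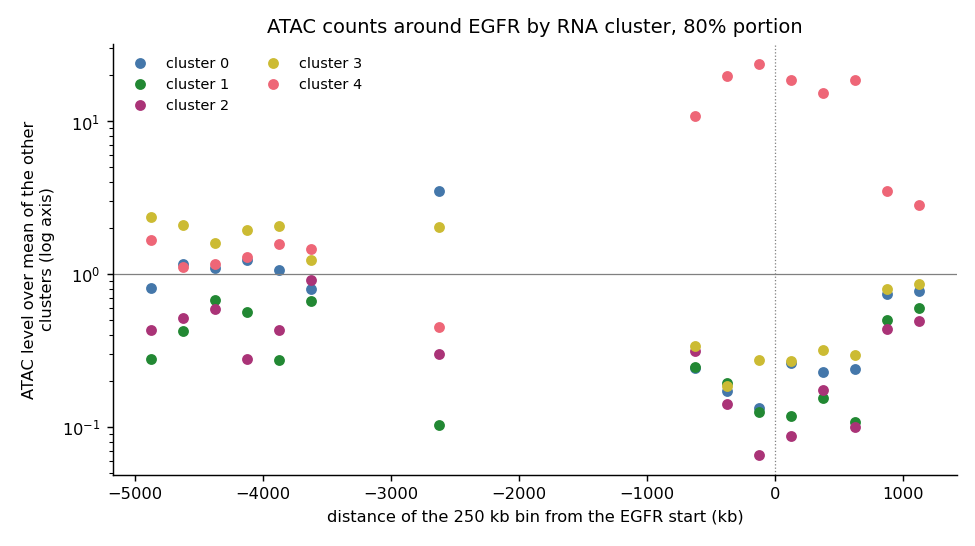
ATAC level of a cluster over the mean of the other 4 clusters (log y axis) in bins of 250 kb by distance from the EGFR start (x axis, kb), 1 colour per RNA cluster of the 80% portion. Cluster 4 stands at 10.9 to 23.9 within 750 kb, and at 2.85 to 3.50 in the next bins downstream. Bins with few peaks are not drawn.

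Peaks around the other members differed less in cluster 4. Those within 500 kb of them, relative to the mean of the other clusters, lay between 0.878 and 1.49 in cluster 4. In cluster 2 the ATAC ratio was 0.222 around ERBB4, 0.332 around NRG1, 0.410 around BTC, 0.559 around AREG and 0.617 around EREG. The summed RNA of the genes there, members left out, relative to the mean of the other clusters was 0.685 to 1.56 in cluster 4 for these members and 10.5 for EGFR. It was 2.68, 2.47 and 2.14 in cluster 1 and 0.362, 0.347 and 0.133 in cluster 2 around AREG, EREG and BTC, whose surroundings overlap, and 5.47 in cluster 0 around ERBB4, where 1 gene had at least 100 UMIs.

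Clustering the same nuclei by ATAC, without peaks within 1 Mb of the members, divided cluster 3 into a group of 436 nuclei, called 3a here, and one of 349 nuclei, called 3b, with 73 nuclei in neither. This division was chosen after seeing the data. The RNA of 3a was led by EPCAM, CCSER1 and CDH1 and that of 3b by TAGLN, LINC01411 and LOX. EPCAM and CDH1, epithelial adhesion genes, had 688 and 196 CPM in 3a and 37.7 and 8.21 CPM in 3b. TAGLN and LOX, an actin-binding protein and a collagen crosslinking enzyme, had 7.90 and 21.0 CPM in 3a and 243 and 248 CPM in 3b.

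ERBB3 and several ligands differed between 3a and 3b, which the level of cluster 3 as a whole does not show. With at least 100 UMIs in both groups together, 5 of 8 members were at least 2-fold apart, against 10.5% of 11062 genes. ERBB3 had 31.6 CPM (27.8 to 35.7) in 3a and 1.79 CPM (0.856 to 3.28) in 3b, a 17.7-fold difference. Its starts had 74.9 and 31.7 ATAC CPM. TGFA had 40.8 CPM in 3a and 5.00 CPM in 3b, 8.17-fold higher in 3a, with 44.6 and 21.9 ATAC CPM at its starts.

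AREG and EREG were higher in 3a, with 119 against 41.2 CPM and 78.7 against 30.5 CPM, or 2.88-fold and 2.58-fold. NRG1 went the other way, with 95.7 CPM in 3a and 263 CPM in 3b, 2.74-fold higher in 3b, while its starts had 32.7 and 33.8 ATAC CPM. The second EGFR start peak had 21.7 ATAC CPM in 3a and 4.48 in 3b, against 30.6 and 28.8 at the first. EGFR RNA was 431 CPM (417 to 446) in 3a and 393 CPM (377 to 410) in 3b. Both lay below the 459 CPM of cluster 3 as a whole, which also holds the 73 nuclei in neither group. All 5 differences had the same direction in the 20% portion. The folds there were 18.6 for ERBB3, 7.46 for TGFA, 4.48 for AREG, 5.23 for EREG and 2.46 for NRG1. In that portion the 62 nuclei of 3b held 2 UMIs of ERBB3, 5 of TGFA, 20 of AREG and 12 of EREG. The sizes of these folds thus rest on few UMIs, that of ERBB3 most of all. NRG1 had 110 UMIs in 3a and 168 in 3b there. Without doublet calls, 10.1% of 3a and 6.59% of 3b, the folds were 18.0, 10.0, 3.24, 3.09 and 3.02. With doublet calls kept, ERBB3 was highest of all 6 groups in 3a, 1.44-fold above cluster 4, and HBEGF in 3b with 20.7 CPM. TGFA was also highest in 3a, 1.02-fold above cluster 0. The NRG1 fold of cluster 1 over the next group, 3b, was 1.83.

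**Figure D5:**
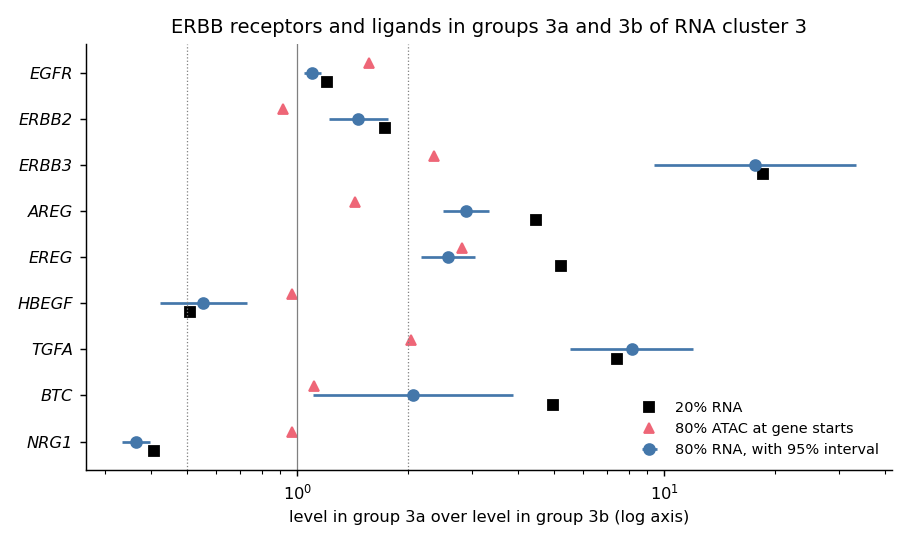
Level in group 3a over level in group 3b (log x axis) for 9 members (y axis). Blue points are 80% RNA with 95% intervals from the UMI counts (normal approximation of the log ratio), black squares 20% RNA and red triangles 80% ATAC at the gene starts, and dotted lines mark 2-fold. ERBB3 lies at 17.7 and TGFA at 8.17 on the side of 3a, and NRG1 is 2.74-fold higher in 3b.

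In clusters 0, 1 and 3, EREG was seen more often in nuclei with AREG than in those without. Without doublet calls and thinned to 4000 UMIs, EREG was seen in 49.1% of the cluster 0 nuclei with AREG (44.0 to 54.2) and in 24.5% of those without (22.6 to 26.6). The shares were 42.9% and 30.9% in cluster 1, 24.5% and 11.5% in cluster 3, which holds 3a and 3b, and 56.4% and 43.5% in cluster 4, where the intervals overlapped. In cluster 0 other pairs also differed, with EREG in 30.7% of nuclei with EGFR and 21.4% of those without, and TGFA in 20.5% of nuclei with AREG and 13.0% of those without. For AREG and NRG1 in cluster 0 the shares were 23.4% and 27.3%, with overlapping intervals. Nuclei of a cluster share their library and are not replicates.

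Of 58 other genes of the pathway, 56 had at least 100 UMIs and 7 met the 2-fold rule, against 17.5% of all genes tested. The median fold over the next cluster was 1.28 for the 56 genes and 1.28 for all genes, and 1.49 for the members. Other ligands accounted for 3 of the 7, each in another cluster. EGF, a ligand of EGFR, had 33.1 CPM in cluster 0, 6.38-fold above the next. NRG2 had 14.9 CPM in cluster 1, 3.73-fold, and NRG4, a ligand of ERBB4, 28.9 CPM in cluster 2, 3.41-fold.

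NRAS, a small GTPase downstream of the receptors, was highest in cluster 2, where most members were lowest, with 95.8 CPM, 2.87-fold above the next. SOCS2, a negative regulator of cytokine and receptor signalling, had 18.3 CPM in cluster 4, 2.23-fold, and ETV4, an ETS factor induced by ERK, 24.0 CPM in cluster 1, 2.38-fold. None of the 4 genes for ligand release and of the 9 PI3K and STAT genes met the rule, where 17.5% of all genes did. Lists this small do not set them apart from that share. Of 14 feedback and output genes of the ERK route, 11 were lowest in cluster 2, against 28.4% of genes. None of the 14 was highest there, against 25.4%, and 10 had a range of at least 4-fold between clusters, against 35.1%. The other lists had fewer genes lowest in cluster 2. These were 0 of 3 other ligands, 1 of 4 ligand release genes and 0 of 16 adaptor and RAS pathway genes. The PI3K and STAT list had 0 of 9 and the negative regulators 3 of 10. Over all 56 list genes, 16 were highest in cluster 2 and 20 had the 4-fold range, near the shares of all genes.

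The genes most like a member were sought by Pearson r of log2(CPM + 10) over the 5 clusters among 10429 genes with at least 1000 UMIs. For EGFR they were IRF1, PARP14 and PHF6 (r 0.999, 0.996 and 0.996), and for NRG1 POLR2J3, MAK16 and DTD1 (0.999, 0.998 and 0.998). NRIP1 was closest to AREG (0.998) and CXCL8 to EREG (0.997). CXCL8 lies on chromosome 4, as EREG does, and MAK16 on chromosome 8, as NRG1 does. Over 5 points of the same library many genes reach such values, so this is a description of order and spacing only.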

How the data were processed

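The authors deposited whole-number counts without normalization, 1 matrix per portion, with UMIs per gene and ATAC counts per peak. The submitters' processing notes name Cell Ranger ARC 2.0.0 and GRCh38, and no source used here gives the gene annotation. Whether ATAC counts are fragments or their ends is not stated. The demuxlet labels, the long reads and the matrix of both portions were not used here. No columns were left without a sample.

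Main values rest on all barcodes. The 2000 most variable genes were selected in scanpy 1.11.5 and reduced to 30 principal components. Seurat 5.3.0 clustered a graph of 20 neighbours with the Louvain method (R 4.3.3, seed 0), at the lowest resolution with at least 5 clusters of at least 1% of nuclei each. ATAC counts were weighted by TF-IDF and reduced in scipy 1.17.1. Counts were summed per cluster and scaled to CPM. Nuclei of the 20% portion took the cluster of the closest profile, which gave 98.0% of the 80% nuclei the cluster they came from. The profiles were summed from these same 80% nuclei, so this share does not measure how well the 20% nuclei were assigned. Doublets were called with Scrublet (385 barcodes) and kept. GENCODE v44 held 99.4% of the gene IDs.

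Members and pathway lists were chosen with earlier results of these data known. All members are named, list genes only where they met the 2-fold rule (1 is not reported here), neighbours of EGFR by distance and UMIs, and the most similar genes by r. With 1 library per portion, shares carry exact binomial and levels exact Poisson 95% intervals, which rest on UMIs and cover counting error only, and a fold against a count of 0 uses 3 counts. The clustering and the 2-fold rule were tried on nuclei simulated from the cluster profiles, without doublets or differences within a cluster. The rule called 85% of genes raised 2.5-fold and 100% of those raised 5-fold. These were drawn from genes well above the minimum of 100 UMIs, so the trial does not cover genes near it. Alternatives covered scaling (TMM in edgeR 4.0.16), filters, clustering, fold thresholds and windows.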

Additional observations from a re-analysis of the deposited data

How the results depend on the processing

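No paired analysis was possible because each portion had 1 library of each kind. No alternative turned a called member around. The fold of EGFR in cluster 4 was 14.7 with TMM scaling, 16.1 with median of ratios, 16.4 with the mean over nuclei, 16.3 without doublet calls, 13.7 with members allowed among the variable genes, 14.5 with 20 principal components and 14.4 with ATAC clusters. The number of members called, 3 of 9, was 1 with members allowed, 1 with ATAC clusters and 1 at 4-fold. It was 2 with TMM scaling, 2 with 20 components, 2 when cluster 3 was divided and 4 at 1.5-fold. The share of all genes called was worked out for the main setting only, so the counts of members and list genes under alternatives lack it. With members allowed and with ATAC clusters the lost calls were AREG, at 1.82 and 1.92, and NRG1, at 1.83 and 1.83. The cause was not tested for AREG. With the mean over nuclei EREG also passed 2-fold, so that 4 members were called. NRG1 also fell to 1.79 with 20 components and to 1.83 when cluster 3 was divided, an alternative chosen after seeing the data, because 3b is then the next group. The list genes called, 7 of 56, were 3 with 20 components (the cause was not tested), 11 at 1.5-fold and 2 at 4-fold. ERBB3, HBEGF and TGFA lost their highest cluster in the partitions with more than 5 clusters, at folds of 0.680 to 0.736, 0.607 to 0.802 and 0.922 to 0.987. The counts of members with shared RNA and ATAC clusters (5 to 6) and the median ratio around EGFR (8.55 to 10.3) kept within 1.5 times of the main values, and 8 of all 10 members (ERBB4 included, whose highest level in the 20% portion rests on 1 UMI) had the same highest cluster in both portions, with and without shared barcodes. ERBB4, HBEGF and BTC are limited by depth.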
